A study of Rattus norvegicus with 18 samples.

Results

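The proteasome genes of rat muscle were compared between 3 muscles in experimental autoimmune myasthenia gravis (EAMG), a model in which antibodies to the muscle acetylcholine receptor (AChR) injure the endplate, and in control rats. The genes were found by their symbols, which had to start with Psma, Psmb, Psmc, Psmd, Psme, Psmf or Psmg followed by a digit, on probe sets that carry 1 gene symbol. This gave 46 genes of 14217 with a probe set of 1 symbol, each read from its probe set of highest mean log2 signal. Of these, 44 encode proteasome parts or helpers, and 2 (Psmc3ip, a partner of meiotic recombinases, and Psme3ip1, a binding partner of a proteasome activator) matched by symbol only. Psmb6 and Psme3 were on probe sets with several symbols and are not named here.

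Tested rats were female Lewis rats, 6 to 8 weeks old when immunized once with Torpedo AChR in complete Freund's adjuvant with added Mycobacterium tuberculosis, and control rats received that adjuvant without AChR. Diaphragm (DIA), extensor digitorum longus (EDL), a fast limb muscle, and rectus extraocular muscle (EOM) were taken after 6 weeks. Each of the 6 groups (EAMG and control in each muscle) had 3 arrays, 18 in all, and the RNA on an array came from a pool of rats (4 to 5, or 4, in the methods, and 3 in the sample labels), so that single rats cannot be told apart. Since control rats also received the adjuvant, a response to adjuvant alone is shared by both groups. The study reports that EAMG rats became weak and lost weight, while control rats gained weight. Antibody attack, weakness and weight loss thus differ together between the groups, and their effects cannot be told apart. In pooled tissue, fewer cells of a type and less RNA per cell cannot be told apart. The replicate arrays are pools, and p-values measure only the spread between them.

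The proteasome is the protease that destroys proteins tagged with ubiquitin, and in muscle it carries much of the protein loss of atrophy. Its barrel, the 20S core, has outer alpha rings that gate the entry and inner beta rings that hold the cutting sites, and the 19S regulatory particle on its end binds, unfolds and feeds in the tagged protein with a ring of ATPases. Interferon gamma induces other beta subunits (Psmb8, Psmb9 and Psmb10) that take the place of the standard ones in the immunoproteasome, and the activator PA28 (Psme1 and Psme2). The 44 genes comprised 7 alpha and 6 standard beta subunits, the 3 immuno subunits, 6 ATPases and 11 other subunits of the 19S particle, 3 activators, 7 assembly chaperones and the inhibitor Psmf1.

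Signals were linear intensities that the authors scaled to a common level on each array. Probe sets were tested if they reached a signal of 400 on at least 1 array, which left 12238 probe sets of all genes and all 46 members. Of the members, 41 reached 400 on all 18 arrays. Psmb8 did so on 2 arrays, Psmb9 on 10, Psmd9 on 14, Psmc3ip on 16 and Psmb10 on 17. Changes are differences of log2 signal from 1 linear model over all 18 arrays (limma), with p-values adjusted over all probe sets tested, and a gene passed at an adjusted p under 0.05.

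Several arrays stood apart. On DIA EAMG 3 the GAPDH 3'/5' ratio, a measure of RNA integrity, was 2.66, against 1.06 to 1.33 on the other 17. Spiked poly-A controls averaged 842 on DIA EAMG 2 and 586 on EOM EAMG 2, and were at least 11357 on the others. Slow fibre genes (9 of 9 matched) summed to 307143 on EDL EAMG 2, above the 215151 to 263380 of the 6 DIA arrays, and to 103890 and 110957 on EDL EAMG 1 and 3 and 95177 to 115575 on EDL control arrays. Ckm, a muscle marker, had a mean signal of at least 33649 in each group. Myh13, the myosin of eye muscle, averaged 22117 in EOM EAMG and 25563 in EOM control, and at most 301 in DIA and EDL. The 6 skeletal muscle markers summed to 191492, 142229 and 112243 on EOM EAMG arrays 1 to 3, against 150075 to 163559 on EOM control arrays. Surface epithelium genes (8 matched) summed to 1538, 969 and 4860 on EOM EAMG arrays 1 to 3, against 722 to 1642 on EOM control arrays. Of 7 tested epithelium genes, 0 passed in EOM.

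In EAMG, the core and 19S genes lay above control in DIA and EDL and not in EOM, but few single genes passed. In DIA, 1 of 46 genes rose (Psmd2) and 0 fell, and in EDL 4 rose (Psme4, Psmd8, Psmd4 and Psmd2) and 0 fell. In EOM 0 of 46 passed. Of all probe sets tested, DIA had 1.53% that rose and 1.15% that fell (2.68% in all), EDL 3.37% and 3.22% (6.59%), and EOM 0.964% and 0.531% (1.5%), so the members' shares of 2.17% in DIA and 8.7% in EDL rest on 1 and 4 genes. By a rule that asks for 7 of the 9 EAMG to control ratios to be 2-fold or more, 0 of 46 passed in any muscle, where DIA had 0.433% of all probe sets tested higher and 0.36% lower, EDL 0.531% and 0.351%, and EOM 0.621% and 0.237%. The study's methods instead required change calls of the array software in 7 of 9 comparisons, so this count does not test its list. Over the 46 genes the log2 change had a median of 0.27 (DIA), 0.23 (EDL) and -0.02 (EOM), beside 0.01, -0.0027 and 6e-04 for all probe sets tested. At an unadjusted p under 0.05, DIA had 18 genes higher and 1 lower (11% and 8.95% of all probe sets tested), EDL 17 and 0 (11.4% and 12.4%), and EOM 0 and 1 (7.13% and 5.98%).

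Each of the 30 genes of the standard core and the 19S particle had a log2 change above 0 on the probe set used in DIA (median 0.32) and likewise in EDL (median 0.30), while 13 of 30 did so in EOM (median -0.03); 51.3%, 49.7% and 50.1% of all probe sets tested were above 0 in DIA, EDL and EOM. Since these genes are measured on the same arrays, they are not 30 independent observations. The 17 genes of the 19S particle had medians of 0.40 (DIA), 0.37 (EDL) and 0.04 (EOM), and the 13 of the 20S core 0.27, 0.21 and -0.04. The other 16 genes had medians of 0.09, 0.10 and -0.0023, among them Psme4 at 0.56 in DIA and 0.93 in EDL. Some dimmer probe sets of the 30 lay below 0, those of Psmc6 in EDL and 1 of Psmd14 in DIA (-0.05 ± 0.21). All 3 EAMG arrays lay above all 3 control arrays for 22 of 46 genes in DIA, 16 in EDL and 1 in EOM, beside 13.3%, 12.6% and 12.5% of all probe sets tested. They lay below all 3 control arrays for 1, 1 and 4 genes, beside 11.1%, 12.4% and 11.9%.

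The arrays did not contribute alike. The 19S genes of DIA EAMG arrays 1 to 3 lay at a median of 0.23, 0.59 and 0.40 log2 above the mean of the DIA control arrays, and those control arrays themselves at -0.10, 0.07 and 0.06. In EDL the EAMG arrays lay at 0.24, 0.26 and 0.60 and the control arrays at -0.02, -0.01 and 0.03. In EOM the EAMG arrays lay at 0.07, -0.03 and -0.09 and the control arrays at -0.02, -0.02 and 0.05. DIA EAMG 2 and EDL EAMG 3 were thus the highest, and only in EOM did the groups overlap. The 20S core gave 0.13, 0.36 and 0.32 in DIA EAMG, against 0.04, -0.07 and 0.05 in DIA control, and 0.13, 0.15 and 0.44 in EDL EAMG, against -0.06, -0.07 and 0.10 in EDL control. Macrophage markers (14 genes, 0 of 12 tested called in any muscle) summed to 12349 to 17135 in DIA EAMG, against 7972 to 11687 in DIA control, without overlap and with DIA EAMG 2 the highest. They summed to 2088 to 5135 in EDL EAMG, against 2154 to 4670 in EDL control, and to 12220 to 25469 in EOM EAMG, against 7984 to 16431 in EOM control. Fast fibre genes (10 of 10 tested) had 0 above 0 in DIA (median -0.26), where Pvalb, the calcium buffer parvalbumin, fell (-1.21 ± 0.15, adjusted p = 0.00161), and summed to 212675 to 222985 in DIA EAMG, against 256026 to 270677 in DIA control, without overlap. In EDL they also had 0 above 0 (median -0.13) and 0 passed, with sums of 353133 to 382402 in EDL EAMG, against 374999 to 472421 in EDL control. Slow fibre genes had 9 of 9 above 0 in EDL (median 0.51), of which Myoz2 rose (0.75 ± 0.20, adjusted p = 0.0408), and 1 of 9 in DIA (median -0.13, 0 passed). In EDL their sum was high on EDL EAMG 2 alone (307143). EDL EAMG 1 and 3 (103890 and 110957) lay within the 95177 to 115575 of EDL control. Endothelial genes (6 tested) had a median of -0.39 in EDL, where Emcn (endomucin) fell (-0.66 ± 0.14, adjusted p = 0.0166), with sums of 3494 to 4136 in EDL EAMG, against 3793 to 5175 in EDL control, and a median of 0.02 in DIA with 0 passing. In EOM 0 of them passed (median -0.29), with sums of 5329 to 5719 in EAMG, against 6127 to 6987 in control, without overlap. Slow fibre sums in EOM were 90034 to 106628 in EAMG, against 108865 to 114185 in control, also without overlap (median -0.09, 0 passed). Fast fibre sums in EOM overlapped, with 206914 to 340811 in EAMG and 269850 to 289921 in control (median -0.13, 0 passed). Genes listed for the orbital lipid gland (7 matched) summed to 11132 to 12415 in EOM EAMG, against 6635 to 7256 in EOM control, without overlap. Of 6 tested, 5 lay above 0 in EOM (median 0.72), and Thrsp rose (3.15 ± 0.57, adjusted p = 0.0111). EOM EAMG 3, low in skeletal muscle markers and high in surface epithelium genes, was the lowest EOM array for the 19S genes (-0.09). The part of these lists in the result was not tested.

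**Figure D1:**
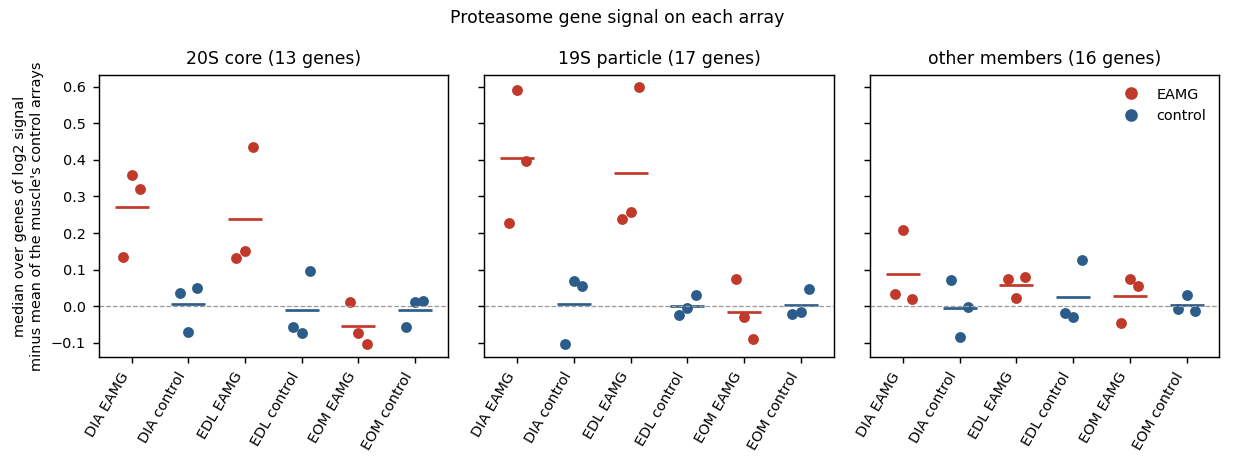
Each point is 1 array, with the median over the genes of a class of the log2 signal minus the mean of that muscle's control arrays on the vertical axis. Bars are means of 3 arrays. The DIA and EDL EAMG arrays (red) lay above all control arrays (blue) of their muscle for the 13 genes of the 20S core and the 17 of the 19S particle, from 0.23 to 0.60 for the 19S particle, and the EOM groups overlapped.

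Among the 11 subunits of the 19S particle that are not ATPases, Psmd2 was the gene that passed in both muscles. It encodes a large scaffold subunit that docks carriers of ubiquitin-tagged proteins. Its signal was 5290, 7490 and 6022 on the DIA EAMG arrays, against 3720, 4253 and 4215 on the DIA control arrays, a log2 change of 0.61 ± 0.14 (SE, n = 3 arrays a group; 1.53-fold higher, adjusted p = 0.0332). In EDL it was 6627, 6531 and 8615 in EAMG, against 4962, 4965 and 4734 in control, a log2 change of 0.56 ± 0.14 (1.47-fold higher, adjusted p = 0.0310). The groups did not overlap in either muscle. In EOM its signals of 3672, 4340 and 3379 in EAMG, against 3505, 3734 and 3652 in control, did overlap (0.06 ± 0.14, adjusted p = 0.905).

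Psmd4, a receptor for ubiquitin chains, rose in EDL, with 3365, 3504 and 5304 in EAMG, against 2370, 2297 and 2624 in control (log2 change 0.71 ± 0.17, 1.64-fold higher, adjusted p = 0.0269). Its groups were also apart in DIA, with 3067, 4181 and 3838 in EAMG, against 2171, 2647 and 2742 in control, a log2 change of 0.55 ± 0.17 that did not pass (adjusted p = 0.0990). Psmd8, a lid subunit, rose in EDL, with 2799, 3797 and 5059 in EAMG, against 1718, 1954 and 2744 in control (0.85 ± 0.20, 1.80-fold higher, adjusted p = 0.0239). In DIA its change was 0.40 ± 0.20 (adjusted p = 0.287) and in EOM 0.04 ± 0.20 (adjusted p = 0.954). The other 8 of the 11 genes had changes of 0.19 (Psmd11) to 0.46 (Psmd6) in DIA and 0.23 (Psmd1 and Psmd14) to 0.37 (Psmd3 and Psmd6) in EDL. Psmd6 and Psmd13 had the largest changes in EOM, 0.22 ± 0.16 and -0.21 ± 0.12, and did not pass. For Psmd11, a lid subunit, a dimmer probe set rose in EDL (0.74 ± 0.17, adjusted p = 0.0214) where the brighter one did not (0.32 ± 0.13, adjusted p = 0.149).

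Of the 6 ATPases, which unfold the substrate, 0 passed in any muscle. Their log2 changes ran from 0.11 (Psmc6) to 0.55 (Psmc3) in DIA, from 0.19 (Psmc6) to 0.50 (Psmc4) in EDL, and from -0.18 (Psmc6) to 0.19 (Psmc4) in EOM, with SE of 0.11 to 0.18. The 2 dimmer probe sets of Psmc6 had 0.07 ± 0.11 and 0.15 ± 0.17 in DIA, and in EDL they lay on the other side of 0 from the one used, at -0.04 ± 0.11 and -0.27 ± 0.17, with none passing. For 5 of the 6 in each of DIA and EDL, all but Psmc6, the EAMG arrays lay above the control arrays. Of all probe sets tested, 13.3% in DIA and 12.6% in EDL lay so. The 6 genes are read on the same arrays and are not independent observations. Psmc3 had 3049, 5199 and 3159 in DIA EAMG, against 2359, 2817 and 2409 in DIA control (0.55 ± 0.18, adjusted p = 0.108). Psmc4 had 3224, 3149 and 4614 in EDL EAMG, against 2492, 2544 and 2600 in EDL control (0.50 ± 0.15, adjusted p = 0.0602). Psmc5 in DIA, at 0.48 ± 0.13, also missed the threshold (adjusted p = 0.0642).

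Of the 13 genes of the standard core, 0 passed in any muscle. In the alpha ring, which gates the barrel, the largest changes in DIA were those of Psma4 (0.46 ± 0.19, adjusted p = 0.184) and Psma5 (0.30 ± 0.19), and in EDL those of Psma1 (0.49 ± 0.24, adjusted p = 0.230) and Psma5 (0.47 ± 0.19). Psma1 in EDL had 3856, 3860 and 7590 in EAMG, against 2831, 3352 and 4306 in control, so that EDL EAMG 3 was far above the rest and the groups overlapped. In EOM they were Psma5 (-0.17 ± 0.19) and Psma7 (-0.12 ± 0.11). In the beta ring the largest were Psmb3 in DIA (0.38 ± 0.12, adjusted p = 0.106) and EDL (0.39 ± 0.12, adjusted p = 0.0695), then Psmb7 in DIA (0.33 ± 0.12, adjusted p = 0.132) and Psmb4 in EDL (0.30 ± 0.10, adjusted p = 0.0906). In EOM the 6 beta genes lay between -0.08 and -0.03, with Psmb5 and Psmb4 the lowest. Psmb5, the subunit with the chymotrypsin-like site, had the smallest change of the 13 in DIA, with 8941, 8638 and 8151 in DIA EAMG, against 8185, 8358 and 8265 in DIA control (0.05 ± 0.10, 95% interval -0.17 to 0.27), 0.12 ± 0.10 in EDL and -0.08 ± 0.10 in EOM.

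**Figure D2:**
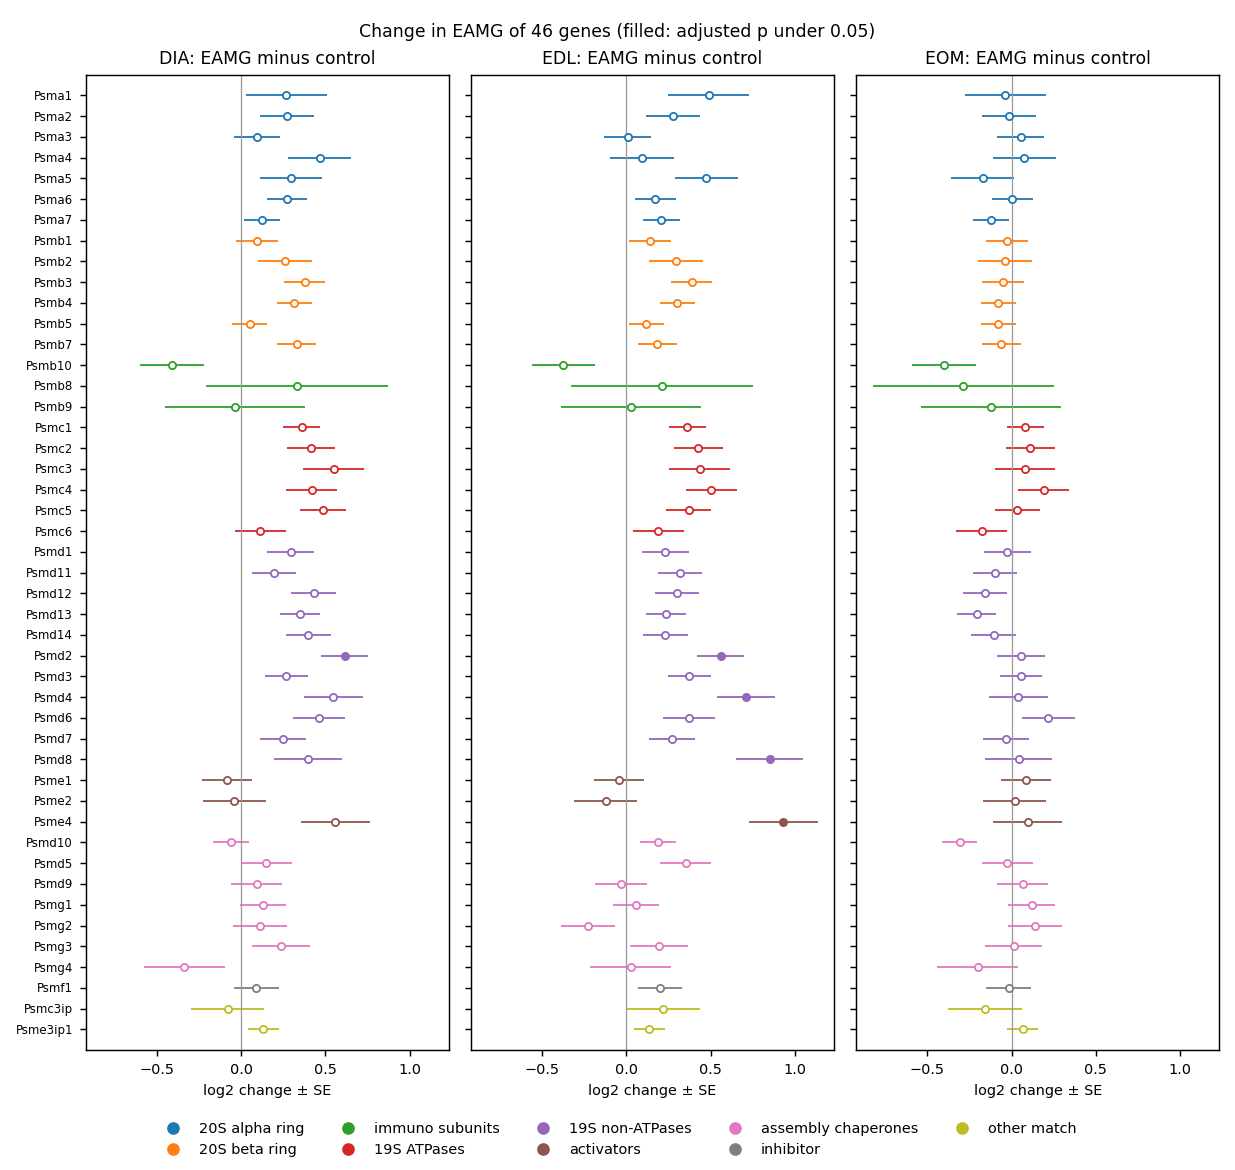
Log2 change of each of the 46 genes, EAMG minus control, with its SE on the horizontal axis, in DIA, EDL and EOM. Genes are grouped and coloured by role, and filled points passed at an adjusted p under 0.05. All alpha, beta and 19S genes lie right of 0 in DIA and EDL, and the filled points are Psmd2 in DIA and Psmd2, Psmd4, Psmd8 and Psme4 in EDL.

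Psme4, which encodes PA200, an activator that caps the core in place of the 19S particle and is known for the degradation of acetylated histones, had the largest change of the 46 genes in EDL. Its signal was 5674, 9029 and 11364 in EDL EAMG, against 4044, 4217 and 4932 in EDL control, a log2 change of 0.93 ± 0.20 (1.91-fold higher, adjusted p = 0.0169). Both other tested probe sets of the gene also rose in EDL, by 0.58 ± 0.12 (adjusted p = 0.0138) and 1.46 ± 0.36 (adjusted p = 0.0275). In DIA the arrays had 4638, 6253 and 6461 in EAMG, against 3938, 3824 and 3898 in control, which were apart but did not pass (0.56 ± 0.20, adjusted p = 0.144). In EOM it was 3115, 3330 and 2471 in EAMG, against 2722, 2836 and 2723 in control (0.10 ± 0.20, adjusted p = 0.888). Psme4 and Psmd8 are in the study's own list of transcripts altered in EDL, chosen on these arrays, so their calls are not independent evidence.

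**Figure D3:**
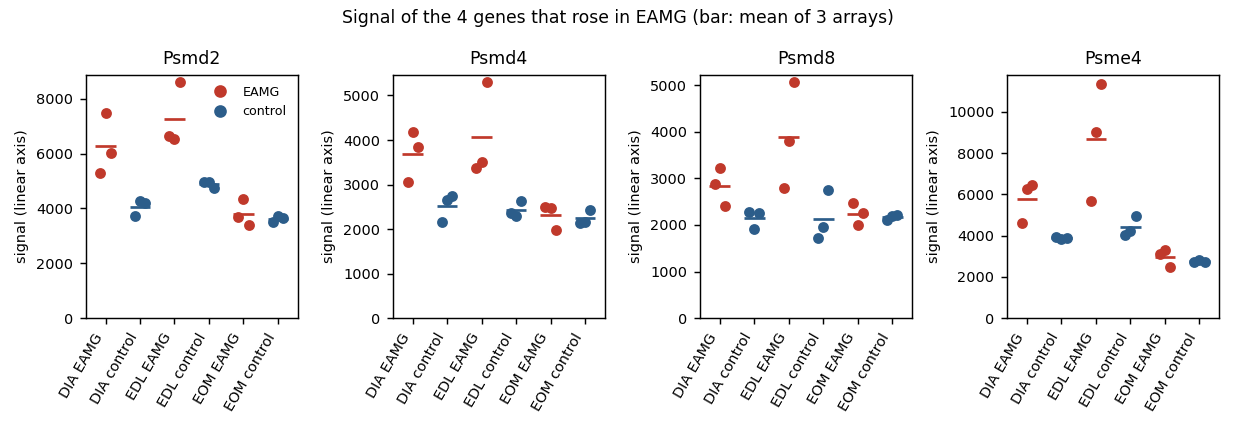
Signal (linear axis from 0) of the 4 genes that passed in DIA or EDL, 1 point for each array and a bar at the mean of 3. The EAMG arrays (red) of DIA and EDL lie above the control arrays (blue), EDL EAMG 3 is the highest array for each gene, with 11364 for Psme4, and the EOM groups overlap.

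These calls were fragile. Without EDL EAMG 3, 0 genes passed in EDL, and likewise without EDL control 1 or EDL control 2. Without EDL EAMG 2, the array with high slow fibre genes, 1 passed (Psmd4), and without EDL EAMG 1, 8 did. In DIA 0 passed without DIA EAMG 2 or 3, any 1 of the 3 DIA control arrays, or EOM control 3, and 9 passed without DIA EAMG 1. The median change of the 30 core and 19S genes stayed above 0 in each of the 18 fits that left out 1 array, from 0.28 to 0.39 in DIA and from 0.16 (without EDL EAMG 3) to 0.37 in EDL, and without the 2 arrays of low poly-A controls it was 0.28 in DIA.

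Whether the EAMG change itself differed between muscles was tested as a difference of changes. Of 46 genes, 0 passed for EDL minus DIA, EOM minus DIA or EOM minus EDL, where 0.0163%, 0.0163% and 0.106% of all probe sets tested passed in either direction (for EOM minus EDL 0.0654% higher and 0.0409% lower). The difference was above 0 for 27, 5 and 6 genes, beside 47.2%, 48.4% and 51.1%. At an unadjusted p under 0.05, 0 genes were higher and 0 lower for EDL minus DIA (2.36% and 2.95% of all probe sets tested), 0 and 8 for EOM minus DIA (3.42% and 3.07%), and 0 and 12 for EOM minus EDL (5.47% and 4.66%). The lowest adjusted p was that of Psmd10 for EOM minus EDL (-0.50 ± 0.15, 95% interval -0.82 to -0.18, adjusted p = 0.252). Psme4 had -0.83 ± 0.29 (95% interval -1.45 to -0.22, adjusted p = 0.333) and Psmd2 for EOM minus DIA -0.56 ± 0.20 (95% interval -0.98 to -0.13, adjusted p = 0.626). The median difference over the 30 core and 19S genes was 0.0085 for EDL minus DIA, -0.30 for EOM minus DIA and -0.33 for EOM minus EDL.

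Of the 3 immuno subunits, 0 passed in any muscle in EAMG. Psmb10, which replaces Psmb7, had 437, 443 and 402 in DIA EAMG, against 601, 638 and 474 in DIA control, and 422, 391.7 and 414 in EDL EAMG, against 537, 592 and 467 in EDL control. Its EAMG arrays lay below its control arrays in both muscles, as did 11.1% and 12.4% of all probe sets tested, with log2 changes of -0.41 ± 0.19 (adjusted p = 0.244) and -0.37 ± 0.19 (adjusted p = 0.246) that did not pass. In EOM they overlapped, with 512, 410 and 753 in EAMG, against 607, 835 and 715 in control (-0.40 ± 0.19, adjusted p = 0.385). Psmb9, which replaces Psmb6, had changes of -0.03 ± 0.41, 0.03 ± 0.41 and -0.12 ± 0.41 in DIA, EDL and EOM. Psmb8, which replaces Psmb5, had 0.33, 0.21 and -0.28, each ± 0.54, at signals mostly under 400, with a 95% interval of -0.81 to 1.48 in DIA.

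Against its standard partner within each array, the Psmb10 minus Psmb7 log2 difference changed by -0.74 in DIA and -0.55 in EDL, which gave the smallest p that an exact two-sided permutation test of 3 against 3 arrays allows (0.1, adjusted 0.3 over 6 tests), and by -0.34 in EOM (exact p = 0.5, adjusted 0.96). Psmb8 minus Psmb5 changed by 0.28 in DIA, 0.09 in EDL and -0.21 in EOM (exact p = 0.8, 0.8 and 1). This exact test of 3 against 3 arrays cannot go below 0.1, and a ratio shows unequal change of the pair, not which of them changed.

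The PA28 genes Psme1 and Psme2 lay close to control in EAMG. Psme1 had 3660, 4521 and 4156 in DIA EAMG, against 4270, 3802 and 5030 in DIA control (-0.08 ± 0.15, 95% interval -0.40 to 0.23), and changed by -0.04 ± 0.15 in EDL and 0.09 ± 0.15 in EOM. Psme2 changed by -0.04, -0.12 and 0.02, each ± 0.19. Among the 7 assembly chaperones 0 passed in any muscle. The largest were Psmg4 (-0.34 ± 0.24) and Psmg3 (0.24 ± 0.17) in DIA, Psmd5 (0.35 ± 0.15, adjusted p = 0.174) and Psmg2 (-0.23 ± 0.16) in EDL, and Psmd10 (-0.31 ± 0.11, adjusted p = 0.197) and Psmg4 (-0.20 ± 0.24) in EOM. Psmd10, which helps build the base of the 19S particle, had 1216, 1199 and 1177 in EOM EAMG, against 1426, 1516 and 1504 in EOM control, groups that did not overlap (11.9% of all probe sets tested lay so). Psmf1, which encodes the inhibitor PI31, changed by 0.09 ± 0.13, 0.20 ± 0.13 and -0.02 ± 0.13. Psmc3ip and Psme3ip1 lay between -0.16 and 0.22 and did not pass.

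Genes that work with the proteasome were read beside it. Of 17 tested partners (shuttles, deubiquitinases and regulators), 0 passed in DIA and EOM, and 1 rose in EDL: Nfe2l2, an activator of antioxidant genes, at 1833, 2622 and 2539 in EAMG, against 1422, 1413 and 1688 in control (0.62 ± 0.13, adjusted p = 0.0141). The partners' median changes were 0.24, 0.16 and 0.06 in DIA, EDL and EOM. The largest in DIA were Adrm1, a ubiquitin receptor of the 19S particle (0.45 ± 0.13, adjusted p = 0.0774), and Vcp, a segregase (0.39 ± 0.16), and in EOM Ddi2 (0.62) and Ubqln1 (0.29). Signals of Ddi2 in EOM were mostly under 400, with 334, 451 and 305 in EAMG, against 210, 240 and 252 in control. Of 5 muscle ubiquitin ligases tested, 0 passed in DIA and EOM and 1 rose in EDL, Trim63 (MuRF1), with 6079, 11948 and 16185 in EAMG, against 3831, 4352 and 4631 in control (1.31 ± 0.36, adjusted p = 0.0420). Fbxo32 (atrogin-1) changed by 1.36 ± 0.46 in EDL, with groups that overlapped, and did not pass (adjusted p = 0.0868). In DIA Trim63 changed by 1.39 ± 0.36 (adjusted p = 0.0516) and Fbxo32 by 1.21 ± 0.46, and in EOM they changed by 0.52 ± 0.36 and 0.13 ± 0.46. For ubiquitin supply, only Uba1 and Uba6 had a tested probe set, and neither passed; Uba6 changed by -0.21 ± 0.20 in DIA, -0.55 ± 0.20 in EDL and -0.29 ± 0.20 in EOM. Of 12 tested genes of antigen presentation and the interferon gamma response, 0 passed in any muscle, with medians of 0.11, -0.25 and 0.12.

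Promoter sequences (250 bases before to 50 after the annotated start, from RefSeq on the rat build GRCr8) were matched to 42 of the 46 genes. They are shown for Psmd4 and Psme4, which rose in EDL, and for Psmb10 and Psme2 as interferon-inducible genes that did not. Capitals mark matches on either strand to the CCAAT box (CCAAT), the core of the antioxidant response element (TGACNNNGC), which Nfe2l1 and Nfe2l2 bind, the core of the interferon-stimulated response element (GAAA, then NN, then GAAA) and the core of the gamma-activated site (TTCNNNGAA).
Psmd4, chr2:185297152-185297451, minus strand: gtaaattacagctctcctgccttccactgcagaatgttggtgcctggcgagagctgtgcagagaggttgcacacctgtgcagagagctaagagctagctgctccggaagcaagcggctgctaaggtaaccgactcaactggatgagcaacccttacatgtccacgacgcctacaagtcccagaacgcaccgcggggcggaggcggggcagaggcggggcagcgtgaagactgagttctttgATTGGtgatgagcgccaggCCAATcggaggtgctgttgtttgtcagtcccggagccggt
Psme4, chr14:108706393-108706692, plus strand: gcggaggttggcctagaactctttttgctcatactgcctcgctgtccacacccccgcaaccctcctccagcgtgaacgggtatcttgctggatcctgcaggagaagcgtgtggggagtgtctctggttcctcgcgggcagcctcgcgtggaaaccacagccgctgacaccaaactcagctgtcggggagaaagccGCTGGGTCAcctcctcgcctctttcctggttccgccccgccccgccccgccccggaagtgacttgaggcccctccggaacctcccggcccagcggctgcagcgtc
Psmb10, chr19:50743243-50743542, minus strand: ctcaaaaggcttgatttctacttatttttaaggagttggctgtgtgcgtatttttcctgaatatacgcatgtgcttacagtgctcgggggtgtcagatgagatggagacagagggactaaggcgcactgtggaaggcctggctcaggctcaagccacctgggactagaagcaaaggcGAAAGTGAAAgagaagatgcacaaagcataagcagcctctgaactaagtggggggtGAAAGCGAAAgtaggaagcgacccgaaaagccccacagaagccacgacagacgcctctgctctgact
Psme2, chr15:33052702-33053001, minus strand: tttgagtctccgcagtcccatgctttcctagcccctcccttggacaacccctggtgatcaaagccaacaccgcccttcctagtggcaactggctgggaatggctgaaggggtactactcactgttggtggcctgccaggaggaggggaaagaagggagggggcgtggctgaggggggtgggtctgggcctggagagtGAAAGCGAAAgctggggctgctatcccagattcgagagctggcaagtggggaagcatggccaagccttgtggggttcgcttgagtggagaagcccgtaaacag

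Psmd4 held 2 CCAAT boxes and no other of these motifs, and Psme4 held 1 antioxidant response element core. Psmb10 held 2 interferon-stimulated cores and Psme2 held 1, and Psmb8 held 1 with a gamma-activated core and a CCAAT box. Psmb9 held a CCAAT box and no other of these motifs. Over the 42 promoters, 52.4% held a CCAAT box, beside 37.5% of 33469 promoters of the table, and 16.7% held an antioxidant core, beside 12.1%. The interferon-stimulated core was in 16.7%, beside 3.92%, and the gamma-activated core in 9.52%, beside 8.87%. The 7 with the interferon-stimulated core were Psma4, Psmb3, Psmb8, Psmb10, Psmd7, Psme2 and Psmg4. The 26 matched core and 19S promoters had the antioxidant core in 19.2% and the CCAAT box in 53.8%. A match describes the letters of the window and is no evidence of binding. Psmd2 and Psmd8 held none of the 4 motifs in this window.

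The control muscles were compared with each other next. The methods describe the muscles as taken from the same rats, but the labels tie no array of a muscle to one of another, so the fit treats the arrays as independent. Mean signals of the probe sets ran from 345 (Psmb8) to 11677 (Psma6) in control EOM, 209 to 11192 in control DIA and 130 to 12510 in control EDL. In control EOM against control EDL, 5 of 46 genes were higher (Psmb9, Psme1, Psmd10, Psme2 and Psmd5) and 6 lower (Psme4, Psmd11, Psmg1, Psmd2, Psmc1 and Psma7), that is 10.9% and 13%, beside 23.1% and 18.3% of all probe sets tested (41.4% in all). At an unadjusted p under 0.05 they were 8 and 7, beside 27.4% and 21.7%, and 19 of 46 differences were above 0, beside 54.2%. The control EOM arrays lay above all control EDL arrays for 10 genes and below for 17, beside 31.2% and 26%. By the rule of 7 of 9 ratios 0 passed, beside 6.35% higher and 3.82% lower. Psmb9 had 505, 1239 and 396 in control EOM, against 265, 291 and 152 in control EDL (log2 difference 1.47 ± 0.41, 2.76-fold higher, adjusted p = 0.0106). It reached the signal minimum on 10 arrays, all of EOM or DIA, and on none of EDL, so that it entered the test only through the muscles where it is high. Its difference from EDL is thus a description only, and the count of 5 and the share of 10.9% include it. Psme1 had 5626, 7077 and 6259 in control EOM, against 2746, 3440 and 4054 in control EDL (0.90 ± 0.15, 1.87-fold higher, adjusted p = 1.9e-04). Psme2 had 2182, 3154 and 2429 in control EOM, against 1791, 1937 and 1706 in control EDL (0.50 ± 0.19, adjusted p = 0.0428). The arrays of the groups did not overlap for any of these 3 genes, and EOM control 2 was the highest for each.

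Psmb8 and Psmb10 were also apart without passing, Psmb8 with 199, 628 and 209 in control EOM, against 136, 141 and 113 in control EDL (1.20 ± 0.54, adjusted p = 0.0885; it reached 400 on 2 arrays, both of EOM, so that this is a description only), and Psmb10 at 0.43 ± 0.19 (adjusted p = 0.0807). With 1 array left out, each passed in 2 of 18 fits (without EOM EAMG 1 or 3 for Psmb8, without EOM EAMG 2 or 3 for Psmb10). Without EOM control 2, Psmb9 was at 0.98 (adjusted p = 0.0617) and Psme2 at 0.35 (adjusted p = 0.190), so neither passed, while Psme1 passed in each of the 18 fits that left out 1 array. Psmb9 was also lost without EDL control 3, and Psme2 without any 1 of the EDL control arrays or EOM control 3. Macrophage markers moved with these genes: 11 of 12 tested were higher in control EOM than in control EDL (median 1.91), and the 14 matched summed to 7984 to 16431 in control EOM, with the highest value on EOM control 2, against 2154 to 4670 in control EDL, with no marker at 0. Of 12 antigen presentation genes 7 were higher in control EOM than in control EDL (median 1.10), among them Cxcl9 (1.79), RT1-Da (1.63), RT1-Bb (1.54) and RT1-S3 (1.49). Cxcl9, Tap1 and Tapbp reached 400 only on EOM arrays, and RT1-S3 and Gbp2 only on EOM and DIA arrays. Differences of these genes from EDL are thus descriptions only. The 7 include Cxcl9 and RT1-S3, and the 12 tested and their median include all of these genes. Defining T cell genes stayed low, with Cd3d, Cd3e and Cd3g at means of 163.7 or less in each group, and neither T nor B cell markers reached the signal minimum. The part of macrophage content in the immuno and PA28 differences was not tested.

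Psmd10 and Psmd5, assembly chaperones of the 19S base, were higher in control EOM. Psmd10 had 1426, 1516 and 1504 in control EOM, against 835, 771 and 967 in control EDL (0.79 ± 0.11, 1.73-fold higher, adjusted p = 3.3e-05), and passed in each of the 18 fits that left out 1 array. Psmd5 had 0.44 ± 0.15 (adjusted p = 0.0314). Psmg1, a chaperone of the alpha ring, was lower (-0.44 ± 0.14, adjusted p = 0.0171), and of the other chaperones Psmg4 had 0.58 ± 0.24 (adjusted p = 0.0663). Psme4 was lower, with 2722, 2836 and 2723 in control EOM, against 4044, 4217 and 4932 in control EDL (-0.67 ± 0.20, adjusted p = 0.0161). Of the 19S genes Psmd11 (-0.47 ± 0.13), Psmd2 (-0.43 ± 0.14) and the ATPase Psmc1 (-0.40 ± 0.11) were lower, and of the core genes Psma7 (-0.36 ± 0.11). The largest alpha ring difference, that of Psma1 (0.44 ± 0.24), did not pass. Psmb5 (-0.15 ± 0.10), Psmb7 (-0.20 ± 0.12) and the other beta genes did not pass, the largest being Psmb2 (0.25 ± 0.16) and Psmb1 (0.23 ± 0.12). Psmf1 had 0.11 ± 0.13, and Psmc3ip and Psme3ip1 0.10 ± 0.22 and -0.08 ± 0.09. After quantile normalization 7 genes were higher and 3 lower in place of 5 and 6.

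In control EOM against control DIA, 3 of 46 genes were higher and 0 lower, beside 10.6% and 10.7% of all probe sets tested (21.3% in all). At an unadjusted p under 0.05 they were 3 and 2, beside 16.5% and 16.2%, and 31 of 46 differences were above 0, beside 51.4%. The arrays lay apart upward for 8 genes and downward for 6, beside 22.7% and 21.6%, and 0 passed by 7 of 9 ratios, beside 3.18% and 2.57%. Psmd10 had 1426, 1516 and 1504 in control EOM, against 980, 958 and 1072 in control DIA (0.56 ± 0.11, adjusted p = 0.00127). Psme1 had 5626, 7077 and 6259 in control EOM, against 4270, 3802 and 5030 in control DIA (0.54 ± 0.15, adjusted p = 0.0160), and was lost without EOM control 2 or DIA control 2. Psmb2, a beta subunit without a cutting site, had 4351, 4819 and 5174 in control EOM, against 3507, 3060 and 3776 in control DIA (0.47 ± 0.16, adjusted p = 0.0485), and missed the threshold in 15 of the 18 fits lacking 1 array. Psmb8, Psmb9 and Psmb10 had 0.60 ± 0.54, 0.50 ± 0.41 and 0.33 ± 0.19, Psme2 0.30 ± 0.19 and Psme4 -0.49 ± 0.20 (adjusted p = 0.101), and none of these passed. For Psme4 a dimmer probe set was lower (-0.46 ± 0.12, adjusted p = 0.0118), and the one used passed without EDL EAMG 1 (adjusted p = 0.0279). Macrophage markers had 0 of 12 tested higher here (median 0.64), with sums of 7984 to 16431 in control EOM and 7972 to 11687 in control DIA. The largest alpha ring differences were Psma2 (0.29 ± 0.16) and Psma5 (0.28 ± 0.19), and those of the 19S ATPases and other subunits Psmc3 (0.20 ± 0.18), Psmc6 (0.18 ± 0.15), Psmd11 (-0.20 ± 0.13) and Psmd13 (0.17 ± 0.12). Psmb5 and Psmb7 had 0.03 ± 0.10 and 0.10 ± 0.12.

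In control DIA against control EDL, 0 of 46 genes were higher and 2 lower, beside 14.1% and 10.8% of all probe sets tested (24.8% in all). At an unadjusted p under 0.05 they were 3 and 5, beside 20.9% and 16.2%, and 16 of 46 differences were above 0, beside 54%. The arrays lay apart upward for 2 genes and downward for 16, beside 22.8% and 19.3%, and 0 passed by 7 of 9 ratios, beside 3.27% and 1.72%. Psmc1, a 19S ATPase, had 2883, 2649 and 2912 in control DIA, against 3615, 3482 and 3505 in control EDL (-0.33 ± 0.11, adjusted p = 0.0377). Psmd13, a lid subunit, had 1465, 1659 and 1570 in control DIA, against 2049, 1852 and 2015 in control EDL (-0.33 ± 0.12, adjusted p = 0.0489, or 0.0540 with the replicate number as a block), and missed the threshold in 16 of the 18 fits lacking 1 array, as did Psmc1 in 6, those without any 1 control array of DIA or EDL. Psmb9 had 527, 465 and 357 in control DIA, against 265, 291 and 152 in control EDL, groups that were apart but did not pass (0.97 ± 0.41, adjusted p = 0.103, again a description, since no EDL array reached 400). In the same comparison 8 of 12 macrophage markers were higher (median 1.37, sums of 7972 to 11687 in control DIA and 2154 to 4670 in control EDL). Some of these markers may likewise have entered through EOM or DIA alone, so this count is a description only. Psmb8 and Psmb10 had 0.60 ± 0.54 and 0.10 ± 0.19, Psme1, Psme2 and Psme4 0.36 ± 0.15, 0.20 ± 0.19 and -0.17 ± 0.20, and Psmb5 and Psmb7 -0.18 ± 0.10 and -0.30 ± 0.12. The 30 core and 19S genes had a median of -0.16 here, -0.12 for EOM minus EDL and 0.04 for EOM minus DIA, beside 0.04, 0.05 and 0.01 for all probe sets tested. The 3 comparisons share control arrays and are not independent.

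**Figure D4:**
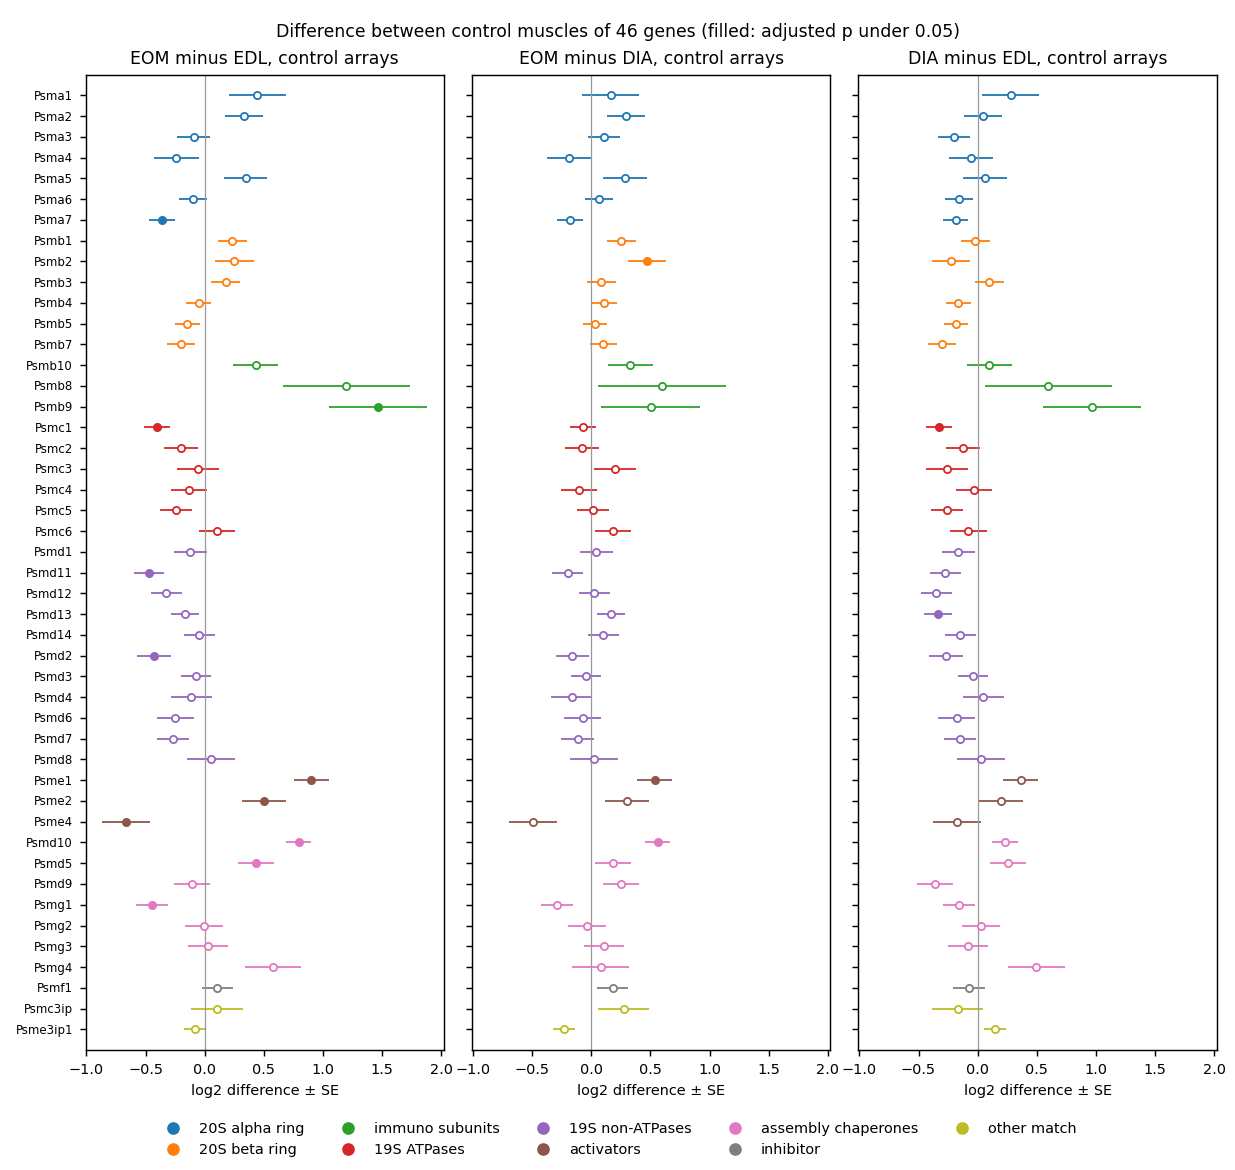
Log2 difference with its SE between control muscles for each of the 46 genes, coloured by role, with filled points for those that passed at an adjusted p under 0.05. The immuno genes lie to the right of 0 in each panel, with Psmb9 at 1.47 for EOM minus EDL, and most 19S genes lie left of 0 for EOM minus EDL and DIA minus EDL.

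Set in order of mean signal, Psmb9 was 647 ± 396 in EOM EAMG, 435 ± 35.8 in DIA EAMG and 236 ± 55.5 in EDL EAMG, against 713 ± 459 in control EOM, 450 ± 86.1 in control DIA and 236 ± 74.2 in control EDL (SD, n = 3 arrays each). Psmd10 was 1482 ± 48.9 in control EOM, 1003 ± 60.3 in control DIA and 858 ± 100.4 in control EDL, of which only EOM passed against a neighbour. Levels were not compared between genes, because each probe set has its own brightness.

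**Figure D5:**
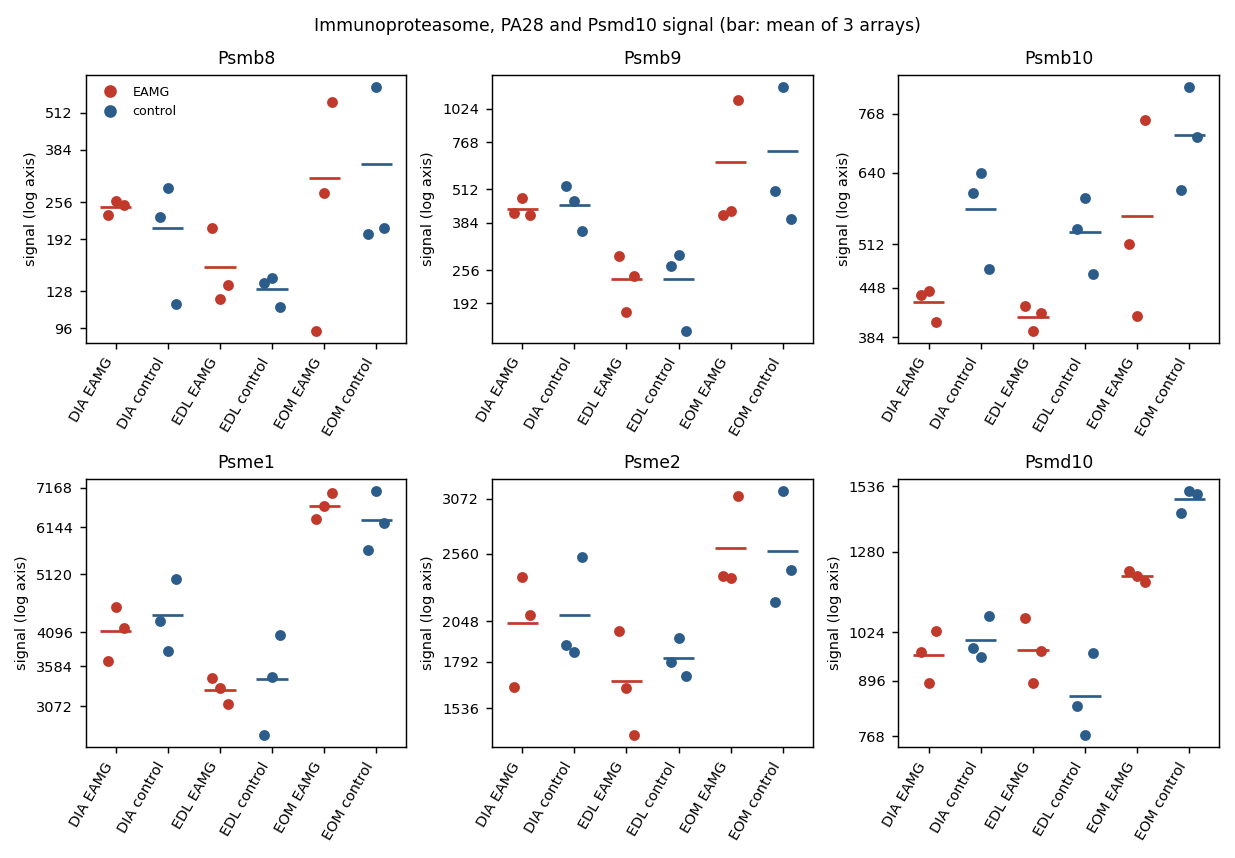
Signal (log axis) of the 3 immuno subunits, the PA28 genes Psme1 and Psme2, and Psmd10 on each array, with a bar at the mean of 3 arrays. The points of EOM spread widest for Psmb8 and Psmb9, where EOM EAMG 3 (1104) and EOM control 2 (1239) are high for Psmb9, and the 3 EOM EAMG arrays lie below the 3 EOM control arrays for Psmd10.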

How the data were processed

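RNA of 18 samples was measured on Affymetrix rat expression arrays. The deposited intensity values are linear signals that the authors made with GCOS 2.0 from perfect match and mismatch probes and scaled to 1 target intensity (on each array the mean without the top and bottom tails is 500). Probe-level data and change calls were not used here, so a linear model took the place of the GCOS calls of the methods, whose signal minimum of 400 was kept. No sequencing depth applies, and the number of arrays limits the precision.

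The platform's annotation paired 20826 of 31042 probe sets (array controls left out) with a single symbol, which were named, 436 with more than 1, and 9780 had no symbol. The members had 60 probe sets, of which 6 reached 400 on no array. Psmb6 was not named, so the planned comparison of Psmb9 with it was not made and 6 in place of 9 paired ratios were tested. The log2 signals were fitted with limma 3.58.1 under R 4.3.3 (lmFit, eBayes, 1 mean per group, all 18 arrays), with Benjamini-Hochberg adjustment over 12238 probe sets. SE and intervals are those of limma, SD is between arrays. The script was tested on simulated data. Figures used python 3.11.15 and matplotlib 3.10.9.

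The members and lists were chosen with earlier results of these data known. The text names, in each comparison and role, the members that passed or the 2 of largest change, the immuno subunits, Psmb5, Psmb7 and the activators throughout, and from each list the 2 to 4 largest changes. Others, such as Psmc5, Psmd11's dimmer probe set and Psmb10's order in EAMG, were named after their values were seen. Alternatives were the signal minimum, quantile normalization, 100 added to each signal, fits of only the muscles compared, a replicate block, leaving out arrays, every probe set of the members, and a rule that 7 of the 9 ratios be 2-fold or more.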

Additional observations from a re-analysis of the deposited data

How the results depend on the processing

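With no signal minimum, 0 members were higher in DIA, 0 in EDL, 3 higher and 2 lower in control EOM against EDL, 1 higher in control EOM against DIA, and 0 lower in control DIA against EDL. Under the rule of 7 of 9 ratios of 2-fold or more, 0 passed in each of these comparisons. With only the muscles compared in the fit, 0 members were higher in DIA and 0 in EDL, 1 was lower in control EOM against DIA, and 1 was higher and 1 lower in control DIA against EDL. After quantile normalization, 3 were lower in control EOM against EDL, 1 lower in control EOM against DIA, and 1 higher and 1 lower in control DIA against EDL. Counting every probe set of the members gave 7 higher in EDL and 1 lower in control EOM against DIA, and with DIA EAMG 2 and EOM EAMG 2 left out for their low poly-A controls 0 were higher in DIA. The cause of these shifts was not tested.

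Leaving out 1 array gave 0 to 9 higher in DIA, 0 to 8 in EDL, 2 to 7 higher and 3 to 7 lower in control EOM against EDL, 1 to 3 higher and 0 to 1 lower in control EOM against DIA, 0 to 3 higher and 0 to 3 lower in control DIA against EDL, and 0 to 1 for the differences of the EAMG change (1 without EDL EAMG 1). Median changes of the 30 core and 19S genes ran from 0.28 to 0.39 in DIA, 0.16 to 0.37 in EDL, -0.06 to 0.01 in EOM, -0.12 to 0.08 for EDL minus DIA, -0.38 to -0.26 for EOM minus DIA and -0.40 to -0.20 for EOM minus EDL. In EOM 0 members passed in any of these fits.

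With the replicate number as a block, 1 member was higher in DIA, 4 in EDL and 0 in EOM. In control muscles 6 were higher and 7 lower for EOM against EDL, 3 higher for EOM against DIA and 2 lower for DIA against EDL, of which Psmd13 was not one (adjusted p = 0.0540). Same-numbered EAMG and control arrays of a muscle deviated together in 7 of 9 pairs (correlation over 0.1, range -0.03 to 0.34), and arrays of different muscles with the same number and treatment correlated at -0.20 to 0.47. The methods say that the study was repeated to give the replicates, but the labels tie no number to an experiment, and whether the numbers pair the arrays is not known.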
